A study of Mus musculus with 25 samples.

Results

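The serpin genes encode a family of protease inhibitors and relatives, and most mouse serpins lie in 3 tandem gene clusters. They were taken as the autosomal protein-coding gene records of the mouse RefSeq annotation whose symbol starts with Serpin, 62 of 20665 such records on the autosomes. By clade these were 23 Serpina, 28 Serpinb, 3 Serpine, 2 Serpinf and 2 Serpini genes and 1 gene each of Serpinc, Serpind, Serping and Serpinh. A cluster was a run of at least 3 members less than 500 kb apart. The Serpina cluster held all 23 Serpina members (chr12:103616675-104414334, 797.7 kb). The Serpinb clusters held 12 members (chr1:106861175-107608978, 747.8 kb) and 16 members (chr13:32842092-34002794, 1161 kb). The other 11 members lay outside these 3 runs. All coordinates are those of the mouse build mm10.

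The series profiled H3K27me3, the histone mark of Polycomb repressive complex 2 (PRC2), in 3 cell systems, and the data analysed were 3 lists of peak positions, 1 per system. Wild-type neural progenitor cells made from embryonic stem cells (NPC) were profiled by CUT&RUN in 6 libraries. These were 2 without treatment, 2 with UNC1999 (2 uM) plus A395 (4 uM), both inhibitors of PRC2, and 2 after both compounds had been washed out. Fibroblasts of mouse embryos (MEF), immortalized with c-myc, gave 12 ChIP-seq libraries of a line A and a line B, each with 2 libraries per genotype. In line A these were wild type, Ezh2-/-, and Ezh2-/- with retroviral pMSCV-Ezh2. In line B they were wild type, Ezh2-/- (labelled reversible) and endogenous Ezh2 rescue. A further 7 libraries (1 input and pairs for H3K4me3, H3K36me3 and RNA polymerase II) carry the source name of line A Ezh2-/- but titles that name Ezh2 and not its loss, and they were not used. Each line is a single line, so a difference between A and B is between these lines. The labels do not say whether libraries came from separate cultures.

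The names of the line A and line B lists each join sample names of that line without spelling out wild type or loss of Ezh2, while that of NPC names no treatment. Which libraries entered each call, and how, is not stated in those names or labels, so genotypes and treatments could not be compared. The line A list held 86235 peaks (median width 1420 bp), the line B list 81972 (1123 bp) and the NPC list 44807 (1458 bp), with no height or read depth. With 1 list per system there was no replicate error and no test, and counts were read beside the same count over all 20665 genes. A gene without a peak is not shown to lack the mark, and NPC and MEF differ both in cell type and in assay. Marker genes were checked first. Over all genes the shares with a peak were 32.9% (line A), 33.6% (line B) and 26.6% (NPC). Of 8 fibroblast markers, 1 had a line A peak, 0 a line B peak and 1 an NPC peak. Of 8 neural progenitor markers, 7, 8 and 2 had one, with Sox2, Pax6 and Nes free of peaks in NPC. The lists hold a repressive mark only, so these counts say nothing of expression.

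Serpins that inhibit proteases present an exposed reactive loop that the protease cleaves, after which the serpin snaps into a new fold and holds the enzyme in a covalent trap. Serpina proteins are mostly secreted and many are made in the liver, where they enter the plasma. Serpinb proteins lack a classical signal peptide and act mainly inside cells, many of them in epithelia and leukocytes. In mice both clades have grown by tandem duplication, so that single human genes correspond to several mouse copies. PRC2, whose catalytic subunit is Ezh2 or Ezh1, methylates histone H3 at silent genes, and it is best known at developmental regulators with promoters rich in CpG dinucleotides.

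Most serpin promoters held few CpG dinucleotides, including those with a peak. RefSeq promoter sequences of the assembly of mm10 (GRCm38.p6), 250 bases before to 50 after a start, were matched by symbol for 53 of the 62 members. Bases upstream of the start that lie in no gene record are printed 5′ to 3′ in the direction of the gene, with every CpG in capitals. The first 7 had a peak over the promoter: Serpinb12 in all 3 lists, Serpina1c and Serpina3c in line B, and Serpina11, Serpina3n, Serpinb3a and Serpini1 in NPC. Serpina3c is shown beside Serpina3n because their 300-base promoters were 91.7% identical while their peaks were in different lists. Serpine2 and Serpinh1 are shown as promoters of members with no peak in any list. They are not typical of these, with 41 and 16 CpG in 300 bases, where the 51 serpin promoter entries without a peak held a median of 3.
Serpinb12 (chr1:106934199-106934448, plus strand): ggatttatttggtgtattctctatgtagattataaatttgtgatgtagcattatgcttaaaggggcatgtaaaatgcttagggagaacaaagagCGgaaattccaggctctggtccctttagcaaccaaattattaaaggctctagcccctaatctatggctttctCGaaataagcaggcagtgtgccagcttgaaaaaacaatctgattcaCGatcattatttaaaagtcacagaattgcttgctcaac
Serpina1c (chr12:103904951-103905200, minus strand): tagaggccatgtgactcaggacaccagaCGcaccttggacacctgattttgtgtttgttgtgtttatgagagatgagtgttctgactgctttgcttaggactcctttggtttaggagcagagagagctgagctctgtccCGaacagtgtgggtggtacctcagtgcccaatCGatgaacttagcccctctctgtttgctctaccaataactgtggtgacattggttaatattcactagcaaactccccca
Serpina3c (chr12:104153930-104154122, minus strand): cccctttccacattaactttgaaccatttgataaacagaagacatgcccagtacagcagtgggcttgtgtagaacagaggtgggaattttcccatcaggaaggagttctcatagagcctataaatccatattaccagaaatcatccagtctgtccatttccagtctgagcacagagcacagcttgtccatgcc
Serpina11 (chr12:103989969-103990193, minus strand): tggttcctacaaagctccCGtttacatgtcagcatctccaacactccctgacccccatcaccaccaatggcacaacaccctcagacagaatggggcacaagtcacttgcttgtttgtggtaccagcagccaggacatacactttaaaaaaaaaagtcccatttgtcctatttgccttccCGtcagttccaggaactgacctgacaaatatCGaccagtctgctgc
Serpina3n (chr12:104406458-104406645, plus strand): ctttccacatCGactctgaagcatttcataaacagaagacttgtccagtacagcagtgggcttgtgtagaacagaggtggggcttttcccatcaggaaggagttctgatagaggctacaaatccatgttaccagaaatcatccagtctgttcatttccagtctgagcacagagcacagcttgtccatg
Serpinb3a (chr1:107052304-107052553, minus strand): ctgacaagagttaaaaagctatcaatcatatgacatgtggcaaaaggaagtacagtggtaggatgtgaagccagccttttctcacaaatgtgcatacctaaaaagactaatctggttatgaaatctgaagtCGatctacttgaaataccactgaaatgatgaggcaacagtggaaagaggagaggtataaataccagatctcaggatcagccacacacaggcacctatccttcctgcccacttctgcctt
Serpini1 (chr3:75557243-75557492, plus strand): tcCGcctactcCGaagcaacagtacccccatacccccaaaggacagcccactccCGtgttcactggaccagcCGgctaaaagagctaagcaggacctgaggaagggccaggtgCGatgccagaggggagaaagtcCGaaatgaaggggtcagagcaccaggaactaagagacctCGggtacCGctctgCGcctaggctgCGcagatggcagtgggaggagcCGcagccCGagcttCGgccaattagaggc
Serpine2 (chr1:79858666-79858915, minus strand): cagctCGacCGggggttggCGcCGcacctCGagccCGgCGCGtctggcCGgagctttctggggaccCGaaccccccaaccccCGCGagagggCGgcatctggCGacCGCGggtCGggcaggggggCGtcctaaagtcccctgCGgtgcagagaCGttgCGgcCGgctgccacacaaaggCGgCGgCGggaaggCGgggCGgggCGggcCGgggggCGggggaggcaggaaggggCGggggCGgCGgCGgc
Serpinh1 (chr7:99353240-99353489, minus strand): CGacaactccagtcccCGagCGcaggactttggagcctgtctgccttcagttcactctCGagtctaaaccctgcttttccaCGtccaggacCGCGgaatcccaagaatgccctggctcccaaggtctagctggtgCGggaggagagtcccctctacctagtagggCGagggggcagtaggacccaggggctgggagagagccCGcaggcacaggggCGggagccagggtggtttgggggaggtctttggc
The printed bases held 3 CpG in Serpinb12, Serpina1c and Serpina11, 1 in Serpina3n and Serpinb3a, 0 in Serpina3c and 13 in Serpini1. The stretches without a peak held 34 in Serpine2 and 11 in Serpinh1. Serpina11 has 2 promoter entries that overlap, and the shorter printed stretch is given.

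The share of serpin genes with a peak lay below that of all genes in line A, near it in line B and above it in NPC, with no test of these differences. With peaks of at least 1000 bp alone, line B too lay below, at 21% of serpins and 28.8% of all genes. A peak of at least 1 bp over the record or the 2 kb on either side stood at 13 of 62 members in line A (21.0%, where 32.9% of all autosomal protein-coding genes had one). It stood at 20 members in line B (32.3%, background 33.6%) and at 26 in NPC (41.9%, background 26.6%). NPC thus had the shortest list and the most serpins with a peak. The peak lay in the 2 kb around the record alone at 1 of the 13, 4 of the 20 and 7 of the 26 (7.69%, 20% and 26.9%, where it did so at 13.7%, 15.8% and 16.1% of all genes with a peak). Neighbouring members can fall under the same peak, so they are not independent of each other.

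Among members with a peak, coverage was thinner than over all genes with a peak in both fibroblast lines and not in NPC. The median share of the record and its 2 kb covered was 11.6% (line A), 6.84% (line B) and 14.1% (NPC), against 28.0%, 22.4% and 12.4% for all genes with a peak. At least 50% was covered at 3 members in line A (background 10.4%), namely Serpinb6c, Serpinb12 and Serpinb6b. No member reached this in line B (background 10.0%) or in NPC (background 4.25%). The median over all 62 members was 0% in each list, as it was over all genes.

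Which serpins had a peak varied between the lists. A peak in all 3 lists was found at 5 members (background 15.5%), which were Serpinb12, Serpinb13, Serpinb6c, Serping1 and Serpini1. No list had a peak at 24 members (background 53.9%). NPC and neither line had one at 10 members (background 5.59%), of which 7 were in the Serpina cluster. Line B and not line A had one at 15 members (background 7.61%), and line A and not line B at 8 (background 6.93%). All 8 of the latter lay in the chromosome 13 cluster. NPC and not line A had one at 16 (background 7.86%), and line A and not NPC at 3 (background 14.2%). NPC and not line B had one at 15 (background 8.79%), and line B and not NPC at 9 (background 15.8%), which came to 4 without Serpina1a to Serpina1e. Counted in the record alone, NPC and not line A came to 10.

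**Figure D1:**
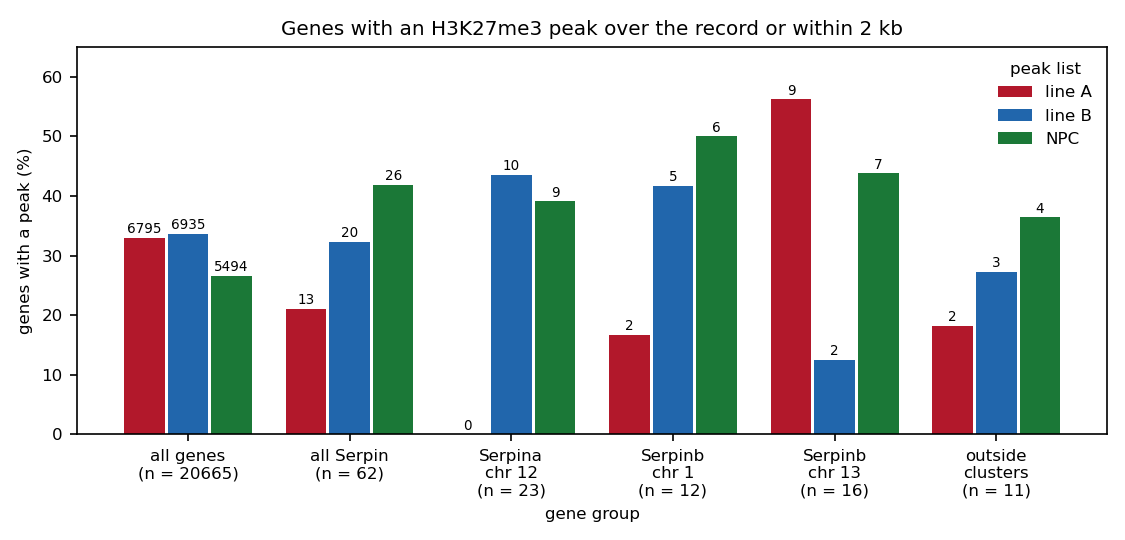
Percentage of genes with an H3K27me3 peak over the record or within 2 kb (y axis) for all autosomal protein-coding genes, all serpins, each cluster and the serpins outside clusters (x axis), with a bar per peak list and the number of genes above it. The Serpina cluster had 0 of 23 genes in line A against 10 and 9 in line B and NPC, and the chromosome 13 cluster had 9 of 16 in line A against 2 in line B.

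The Serpina cluster held no line A peak anywhere in its 797.7 kb. Its genes encode plasma inhibitors and hormone carriers, among them the copies of α1-antitrypsin (Serpina1), the inhibitor of neutrophil elastase, and of antichymotrypsin (Serpina3). Line B placed 53 peaks there with a median width of 988 bp, over 86.4 kb (10.8% of the span). NPC placed 27 with a median width of 1985 bp, over 73.5 kb (9.21%). Most of this length lay between the genes: serpin records made up 28.7% of the span and held 18.1% of the line B and 18.4% of the NPC peak length. Over chromosome 12 as a whole the lists covered 7.46% (line A), 8.0% (line B) and 4.21% (NPC) of the bases. Line A had a peak at 0 of the 23 members (0%, background 32.9%), line B at 10 (43.5%, background 33.6%) and NPC at 9 (39.1%, background 26.6%), and 6 members had none in any list.

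The peak-free stretch of line A ran past both ends of the cluster (chr12:103577192-104440815, 863.6 kb). It held all 23 members. Stretches between peaks at least as long made up 365 of the 86216 in that list (0.423%, median 2.54 kb), and 12.8% of all genes lay within such stretches. The same region had peaks in both other lists, where the longest stretch between peaks in the cluster was 188.6 kb in line B and 194.7 kb in NPC. Reads were not analysed, so in line A a stretch with reads and no mark cannot be told apart from a stretch with few reads.

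Line B and NPC marked opposite ends of the Serpina cluster. From Serpina10 to Serpina1e (340 kb, 9 members), line B peaks covered 75.2 kb (22.1%) with a peak at 7 members, and NPC peaks covered 12.1 kb (3.55%) with a peak at 2. From Serpina11 to Serpina3n (434 kb, 14 members), line B peaks covered 11.1 kb (2.57%) with a peak at 3 members, and NPC peaks covered 58.6 kb (13.5%) with a peak at 7. This division was drawn after the values were seen. Both lists shared 6.79 kb, 7.86% of the line B and 9.24% of the NPC coverage of the cluster, where over the autosomes 18.8% of line B and 32.3% of NPC coverage was shared.

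In the first stretch, all 5 copies Serpina1a to Serpina1e had a line B peak (background 33.6%). None had a line A or NPC peak (background 32.9% and 26.6%). Serpina1b was covered over 5.42 kb (38.7%) by 4 line B peaks, Serpina1d over 2.16 kb and Serpina1c over 1.59 kb. Serpina1a was covered over 0.987 kb, all of it outside its record, and Serpina1e over 0.197 kb, by 1 peak. The 300-base promoters of the 5 copies were 77.3 to 93.0% identical in pairs (median 89.3%). The treatment of reads shared by such copies was not given in the sources used here. Serpina10 (chr12:103616675-103631490), which with protein Z inhibits factor Xa in plasma, was covered over 6.99 kb (37.1%) in line B and 0 kb in line A and NPC. A line B peak past the end of its record in genome order (chr12:103632668-103639388) was 6.72 kb wide. Serpina6 (chr12:103646630-103657218), which encodes the cortisol carrier of plasma, was covered over 0 kb in line A, 0.668 kb (4.58%) in line B and 4.04 kb (27.7%) in NPC. Serpina1f had no peak in any list.

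In the second stretch, NPC peaks lay over the starts of Serpina11 and Serpina3n. Serpina3n (chr12:104406646-104414334), an acute-phase inhibitor also known from reactive astrocytes, was covered over 5.81 kb (49.7%) in NPC and 0 kb in both lines. Its NPC peak was 11.4 kb wide, the widest of the cluster, and ran from 7.62 kb before the start to 3.75 kb past it, across the whole promoter printed above. Serpina11 (chr12:103980243-103989968) was covered over 5.72 kb (41.6%) in NPC and 0 kb in both lines, by a peak 9.23 kb wide that ran from 5.53 kb before the start to 3.7 kb past it. The Serpina3 copies were mixed, with a peak at 0 of 10 for line A (background 32.9%), 3 for line B (33.6%) and 4 for NPC (26.6%). Serpina3c, the close copy of Serpina3n by promoter sequence, had 0.749 kb in line B and 0 kb in NPC, and its line B peak reached 28 bases of the promoter. Serpina12, Serpina3a, Serpina3g, Serpina3i and Serpina3k had no peak in any list.

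Other ways of counting moved the Serpina values. With as many of the widest peaks in each list as NPC has, line B had a peak at 6 of the 23 members rather than 10, where 29% of all genes had one. With all peaks but without Serpina1a to Serpina1e it had one at 5. Counted in the record alone, NPC had a peak at 5 rather than 9, where 22.3% of all genes had one. Neither the 6 of line B nor the 5 of NPC was thus above the share of all genes. With 5 kb around the record NPC had a peak at 14, where 31.9% of all genes had one. Line A had 0 in each of these settings, which its peak-free stretch fixed in advance, as it ran more than 5 kb past both ends.

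**Figure D2:**
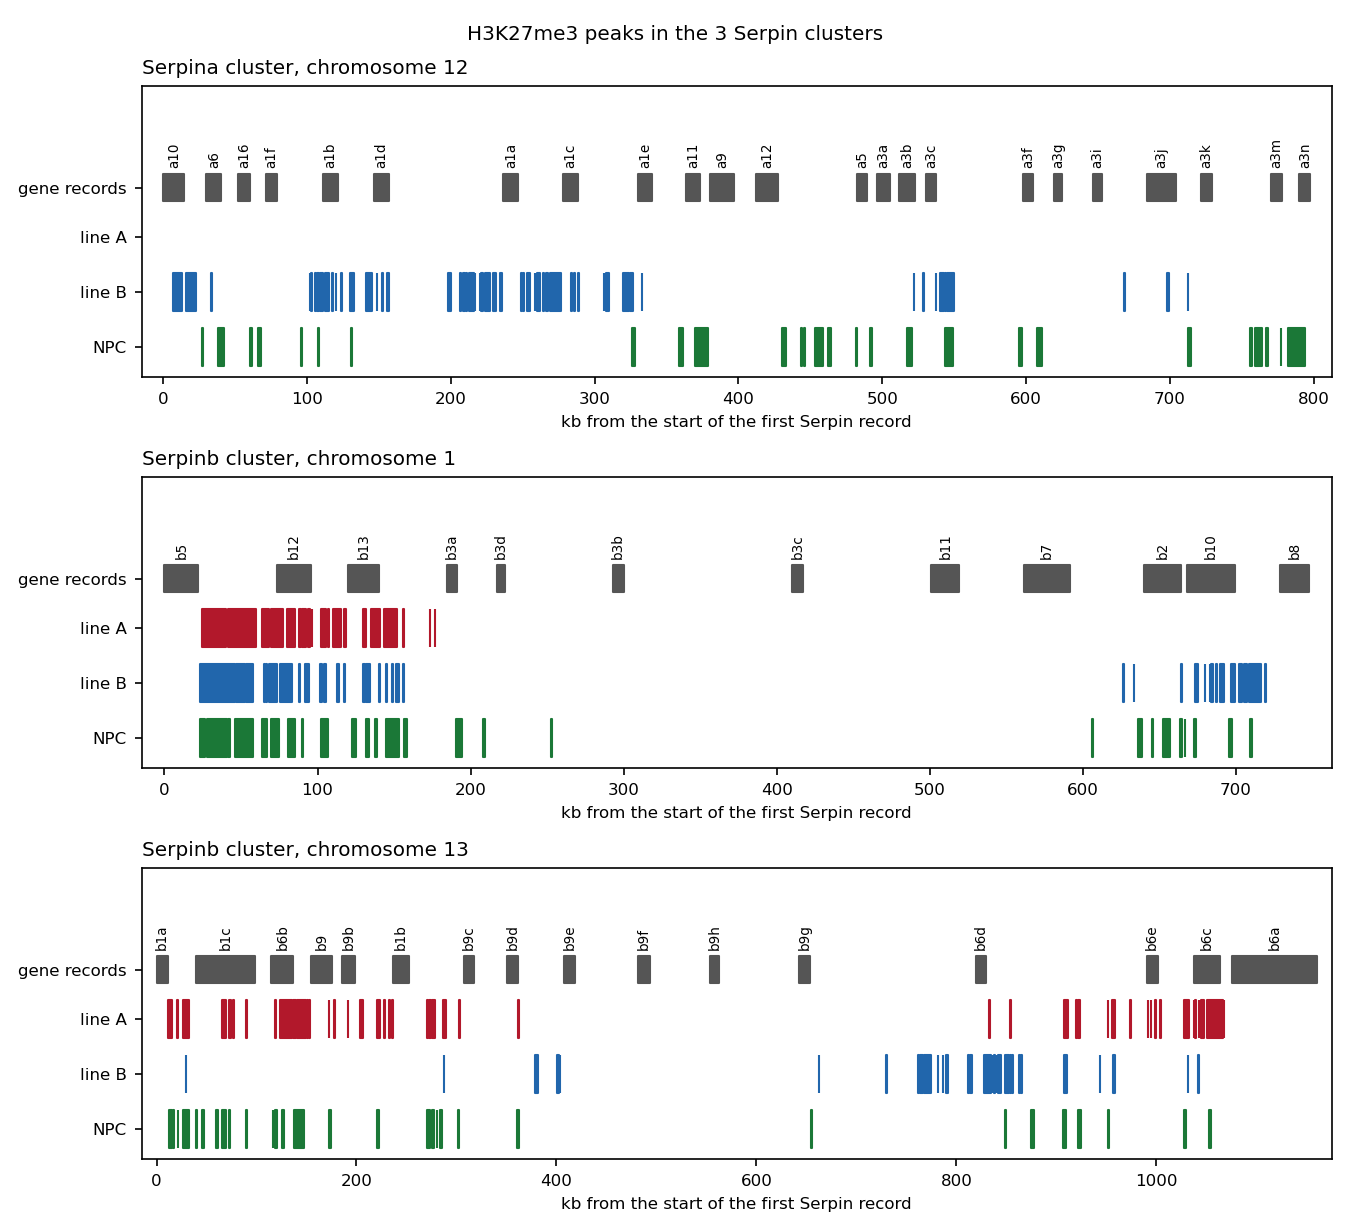
Serpin gene records (grey boxes, named by clade letter and number) and H3K27me3 peaks (coloured bars, narrow peaks widened to the line width) along the 3 clusters, with a row per list and distance from the start of the first serpin record in kb on the x axis. The line A row of the Serpina cluster is empty, line B peaks crowd its left and NPC peaks its right, while on chromosome 1 all 3 lists mark the stretch around Serpinb12.

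The Serpinb cluster of chromosome 1 had peaks in all 3 lists at its Serpinb5 end. It holds inhibitors of epithelia and myeloid cells. Its coverage was 86.0 kb in line A (11.5% of the span), 82.7 kb in line B (11.1%) and 82.1 kb in NPC (11%), where chromosome 1 as a whole was covered over 13.9%, 9.96% and 4.66%. The lists overlapped here: 59.7% of the line A coverage was also in NPC and 62.5% of the NPC coverage in line A, against 20.1% and 40.6% over the autosomes. Line A and line B shared 50.2 kb (58.4% of line A, 60.8% of line B), against 46.3% and 54.2% over the autosomes. All 3 lists shared 35.5 kb. Serpin records made up 28.8% of the span and held 25.6% of the line A, 26.9% of the line B and 28.3% of the NPC peak length.

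Most of this coverage lay from Serpinb5 to Serpinb13 (140 kb, 3 members), where line A peaks covered 75.6 kb (54.0%), line B peaks 57.4 kb (41.0%) and NPC peaks 51.4 kb (36.7%). Serpinb12 (chr1:106934449-106957080), an inhibitor of trypsin-like proteases in epithelia, was covered over 17.1 kb in line A (64.2%), 12.6 kb in line B (47.3%) and 8.59 kb in NPC (32.2%). Among the 53 members with a promoter sequence it was the 1 with a peak over the promoter in every list. Serpinb13 (chr1:106980984-107001195), a cathepsin inhibitor of stratified epithelia, was covered over 9.04 kb in line A, 3.82 kb in line B and 5.78 kb in NPC. Serpinb5 (chr1:106861175-106883348), which encodes maspin, a member without protease inhibition, had no peak inside its record in any list. It counted through peaks that began beyond its end, with 0.966 kb of its window covered in line B and 0.963 kb in NPC.

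The stretch that followed was sparse in every list. From Serpinb3a to Serpinb7 (407 kb, 6 members), line A and line B had no peak and NPC peaks covered 5.53 kb. Of the 6, Serpinb3a (chr1:107045587-107052303), related to the squamous cell carcinoma antigens of humans, had a peak there, over 2.96 kb in NPC (27.6%), which ran from 3.19 kb before its start to 0.962 kb past it. Serpinb3b, Serpinb3c, Serpinb3d, Serpinb11 and Serpinb7 had none in any list. In line A the next peak-free stretch (chr1:107037856-111865952, 4828 kb) held 9 members, from Serpinb3a to Serpinb8. Of the 86216 stretches between peaks of line A, 14 were at least as long, and 1.29% of all genes lay within such stretches.

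At the far end, line B and NPC had peaks and line A had none. From Serpinb2 to Serpinb8 (108 kb, 3 members), line B peaks covered 20.7 kb (19.1%) and NPC peaks 12 kb (11.1%). Serpinb2 (chr1:107500892-107525600), a plasminogen activator inhibitor of macrophages, was covered over 0.472 kb in line B and 8.06 kb in NPC (28.1%). Serpinb10, a serpin of blood-forming cells, was covered over 8.39 kb in line B and 3.77 kb in NPC. Serpinb8 had no peak in any list. In all, a line A peak stood at 2 of the 12 members (16.7%, background 32.9%), a line B peak at 5 (41.7%, background 33.6%) and an NPC peak at 6 (50%, background 26.6%).

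Counted by members, the Serpinb cluster of chromosome 13 was marked mainly in line A and NPC. By covered length, NPC lay nearer to line B than to line A. The cluster holds inhibitors of leukocyte proteases (Serpinb1 copies), of granzyme B (Serpinb9 copies) and the Serpinb6 copies. Line A had a peak at 9 of 16 members (56.2%, background 32.9%), line B at 2 (12.5%, background 33.6%) and NPC at 7 (43.8%, background 26.6%), and 5 members had none. Coverage was 111 kb in line A (9.58% of the span), 49.3 kb in line B (4.25%) and 61.4 kb in NPC (5.29%), where chromosome 13 as a whole was covered over 9.02%, 9.7% and 3.09%. Of the NPC coverage 64.7% was also in line A (35.7% of the line A coverage), and 5.5% was also in line B (6.85% of the line B coverage). Over the autosomes these shares were 40.6% and 20.1% for NPC with line A, and 32.3% and 18.8% for NPC with line B. Line A and line B shared 8.21 kb, 7.38% of the line A and 16.7% of the line B coverage, against 46.3% and 54.2% over the autosomes.

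The lists also differed in how far their peaks fell on the genes. Serpin records made up 29.2% of the span, and held 40.7% of the line A, 30.1% of the NPC and 6.46% of the line B peak length. From Serpinb1a to Serpinb9d (362 kb, 8 members), line A peaks covered 68.9 kb (19.0%) with a peak at 7 members, NPC peaks 45.1 kb (12.5%) with a peak at 5, and line B peaks 0.538 kb with a peak at 0. From Serpinb9e to Serpinb6a (753 kb, 8 members), each list had a peak at 2 members, with 41.2 kb covered in line A, 43.6 kb in line B and 15.7 kb in NPC. This division, like that of the chromosome 1 cluster, was drawn after the values were seen.

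Serpinb6b (chr13:32956811-32979067) was covered over 15.7 kb in line A (59.9%), 0 kb in line B and 4.82 kb in NPC (18.4%). Its widest line A peak, 12 kb wide, began 0.756 kb after the transcription start on which its promoter entry is based. It left the 300-base promoter free. Serpinb6c (chr13:33879816-33905726) was covered over 20.6 kb in line A (69.0%), 1.2 kb in line B (4.0%) and 2.2 kb in NPC (7.35%). A line A peak of 15.7 kb ran across its start, from 3.43 kb before it to 12.3 kb past it. These copies were the members whose coverage differed most between lines A and B, by 65 percentage points at Serpinb6c and 59.9 at Serpinb6b.

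Serpinb6d (chr13:33661405-33671585) showed the reverse, with 3.99 kb covered in line B (28.1%) and 0 kb in line A and NPC, and Serpinb6a (chr13:33917918-34002794) had no peak in any list. Serpinb1c (chr13:32881218-32940628) had 9.82 kb under line A peaks, 9.78 kb under NPC peaks and 0 kb under line B peaks. Serpinb1a, the leukocyte elastase inhibitor, had 1.47 kb covered in line A and 0.158 kb in NPC, outside its record in both. Serpinb9 (chr13:32997061-33017955), the granzyme B inhibitor that protects cytotoxic lymphocytes, had 2.0 kb covered in line A, 0 kb in line B and 1.27 kb in NPC. Of the 8 Serpinb9 copies, line A and NPC each marked 3 (37.5%, background 32.9% in line A and 26.6% in NPC) and line B marked 0 (background 33.6%). With as many of the widest peaks in each list as NPC has, line A had a peak at 5 of the 16 members of the cluster rather than 9. In that setting 27.7% of all genes had one, so line A lay nearer to the background than with all peaks.

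**Figure D3:**
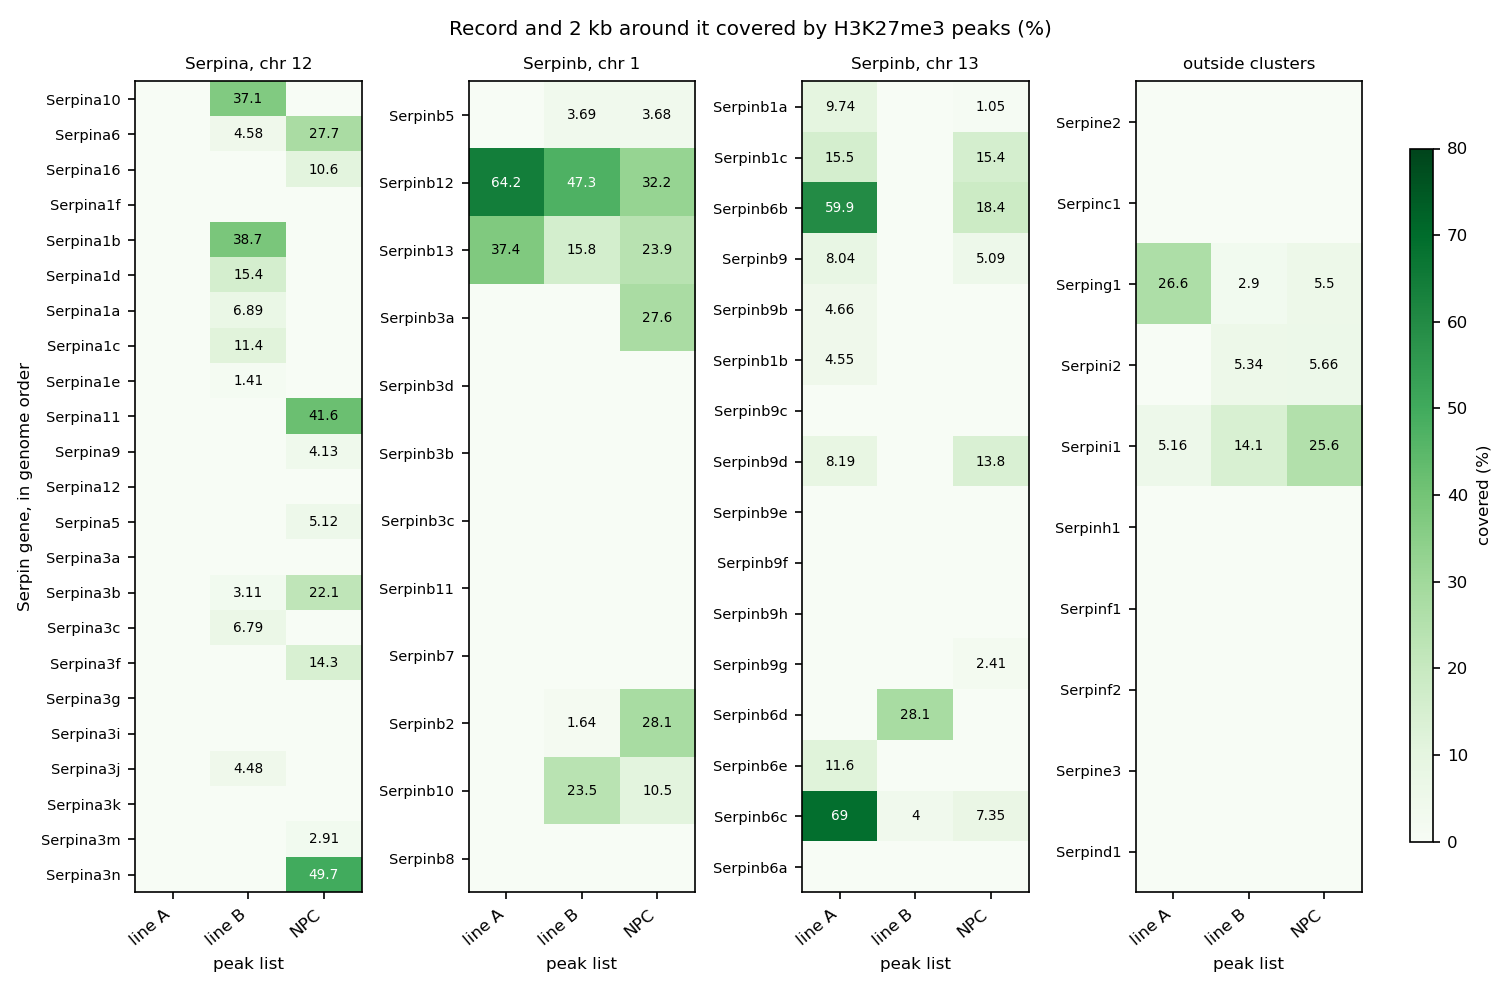
Percentage of each serpin record and the 2 kb on either side covered by H3K27me3 peaks (colour scale, value printed where above 0), for the members reported, in genome order (y axis) and each list (x axis), with a panel per cluster and one for the members outside. Values above 50% stand at Serpinb6c (69.0%), Serpinb12 (64.2%) and Serpinb6b (59.9%), all in line A.

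Outside the clusters, Serpini1 and Serping1 had a peak in all 3 lists. Serpini1 (chr3:75557493-75642523) encodes neuroserpin, an inhibitor of tissue plasminogen activator in neurons, and was covered over 4.59 kb in line A (5.16%), 12.6 kb in line B (14.1%) and 22.8 kb in NPC (25.6%). An NPC peak of 8.65 kb ran from 0.537 kb before its start to 8.11 kb past it. The first peak of line A began 1.21 kb after the start and that of line B 0.42 kb after it. Its promoter was thus covered in NPC and in neither line. Serpini2, a pancreatic relative on the same chromosome, had 0 kb covered in line A, 1.7 kb in line B and 1.8 kb in NPC.

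Serping1 (chr2:84765360-84775444), the C1 inhibitor of the complement and contact systems, was covered over 3.74 kb in line A (26.6%), 0.409 kb in line B and 0.775 kb in NPC. Its line B peak lay outside the record. No peak in any list was found at 7 members outside the clusters. They were Serpine2 (protease nexin, a thrombin inhibitor of glia and fibroblasts), Serpine3, Serpinc1 (antithrombin), Serpind1 (heparin cofactor II), Serpinf1 (pigment epithelium-derived factor), Serpinf2 (the plasmin inhibitor of plasma) and Serpinh1 (the collagen chaperone of the endoplasmic reticulum). Some of these serve in the liver and others in connective tissue, and no level was measured.

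The surroundings of the clusters differed between lists. In the 1 Mb below and the 1 Mb above the Serpina cluster, line A peaks covered 21.7% and 27%, line B peaks 6.57% and 19.2%, and NPC peaks 2.29% and 11.1%. The lower flank of line A was uneven: the 50 kb bins next to the cluster were covered over 1.96%, 1.23%, 6.19% and 3.24%, below the 7.46% of the chromosome, and the most covered bin, at 79.2%, lay farther out. Around the chromosome 1 cluster the same flanks were covered over 1.34% and 0% (line A), 2.88% and 2.66% (line B) and 0.139% and 1.19% (NPC), each below the 11 to 11.5% inside it. Around the chromosome 13 cluster they were covered over 0.195% and 8.79% (line A), 0.351% and 3.3% (line B) and 0.742% and 0% (NPC).

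Neighbouring genes that are no serpins were taken within a cluster or 200 kb of it, to be read beside the same shares of all genes (32.9%, 33.6% and 26.6%). There were 6 such genes at the Serpina cluster, of which line A marked 3, line B 4 and NPC 1. At the chromosome 1 cluster none of 3 had a peak in any list, among them Bcl2. At the chromosome 13 cluster line A marked 2 of 9, line B 2 and NPC 0. Gsc (chr12:104471209-104473236), a homeobox factor of early embryos, was the neighbour with at least 50% covered, over 6.03 kb in line A (100%), 0.496 kb in line B (8.23%) and 0 kb in NPC.

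**Figure D4:**
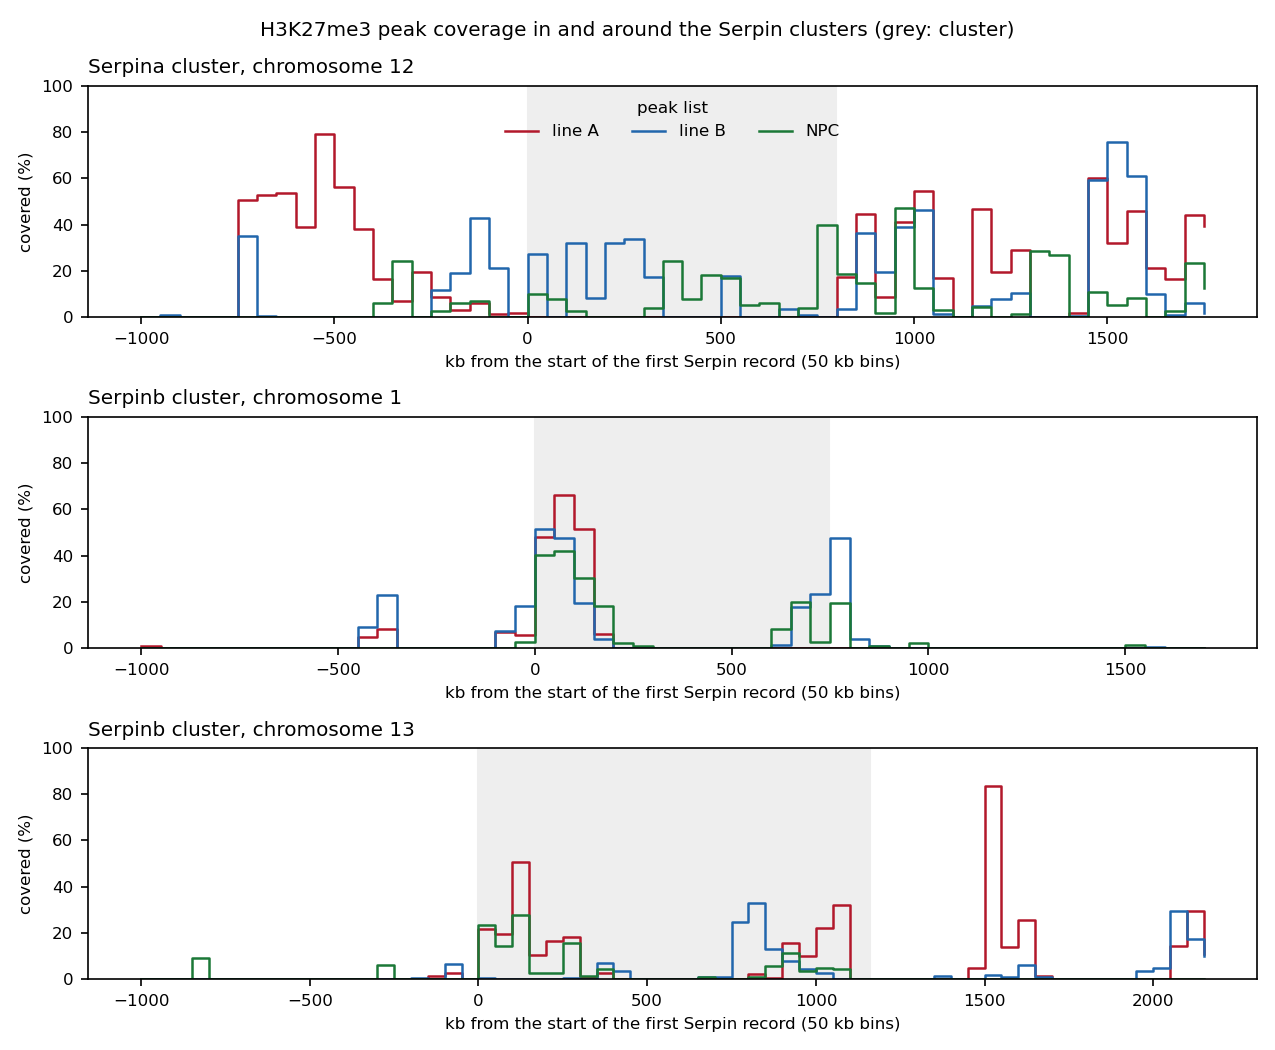
Percentage of each 50 kb bin covered by H3K27me3 peaks (y axis) against distance from the start of the first serpin record in kb (x axis), from 1 Mb below to 1 Mb above each cluster (grey), with a line per list. Line A stands at 0% across the Serpina cluster and at 1.96% in the bin just below it, with its high bins farther out, and all 3 lists peak at the left end of the chromosome 1 cluster.

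Most genes of the pathways in which serpins act had a peak, with the coagulation and leukocyte protease genes in front. Of 31 listed proteases, cofactors, substrates and receptors, 21 had a peak in line A (background 32.9%), 20 in line B (33.6%) and 16 in NPC (26.6%), 15 had one in all 3 lists and 7 in none. The median share covered was 30.4% (line A), 34.6% (line B) and 0.739% (NPC), against 0% over all genes in each list. Of the 15 coagulation genes, 11 had a line A peak, 11 a line B peak and 8 an NPC peak. F10, which encodes factor X, the target of Serpina10 and antithrombin, was covered over 23.4 kb in line A (100%), 18.2 kb in line B (77.8%) and 12.4 kb in NPC (53.2%). The fibrinogen gene Fgb had all 11.6 kb of its window covered in both lines and 2.17 kb in NPC.

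Plg, which encodes plasminogen, was covered over 43.9 kb in line A (98.0%), 41.8 kb in line B (93.3%) and 22.4 kb in NPC (49.9%), while its inhibitor gene Serpinf2 had 0 kb in each. Its activators Plat and Plau and the receptor gene Plaur had no peak in any list. Each of the 5 leukocyte protease genes was marked in both lines, and 4 were in NPC. Among these, Elane, which encodes neutrophil elastase, the target of α1-antitrypsin, was covered over 1.79 kb in line A (30.4%), 1.65 kb in line B (27.9%) and 4.39 kb in NPC (74.3%). Gzmb, the granzyme that Serpinb9 inhibits, was covered over 1.73 kb in line A, 4.57 kb in line B and 1.68 kb in NPC. The cathepsin genes Ctsl and Ctss had none. Of 4 liver marker genes, 3 had a line A peak, 4 a line B peak and 3 an NPC peak, and Alb, which encodes albumin, was covered over 17.3, 18.8 and 1.16 kb. Line A had 0 kb at the liver marker gene Apoa1 and at F2, which encodes prothrombin, as at the Serpina genes. The other liver marker genes had a line A peak, as did 11 of the 15 coagulation genes. Serpinc1, Serpind1 and Serpinf2 had 0 kb in every list. Of 4 keratinocyte marker genes, 2 had a line A peak, 2 a line B peak and 1 an NPC peak.

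The share of serpins with a peak over the promoter lay below that of all genes in both lines and near it in NPC. The median CpG count was the same in serpin promoters with and without a peak. A peak over the 300-base promoter was found in line A at 2 of the 53 members with a sequence (3.77%, where 14.2% of all genes with a promoter entry had one). In line B it was found at 3 (5.66%, background 15.4%) and in NPC at 5 (9.43%, background 10.6%). Those of line A were Serpinb12 and Serpinb6c, those of line B Serpinb12, Serpina1c and Serpina3c, and those of NPC Serpinb12, Serpina3n, Serpina11, Serpinb3a and Serpini1. At Serpina1c and Serpina3c the line B peak covered 116 and 28 of the 300 bases. At each of the others a peak covered at least 299 bases of an entry.

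The 61 promoter entries of serpins held a median of 3 CpG (0 to 41), against 14 over 20085 autosomal entries, counting the letters CG, which read the same on both strands. At most 5 CpG were found in 78.7% of serpin entries and 31.4% of all entries. The ratio of observed to expected CpG had a median of 0.176 in serpins and 0.586 over all entries, and it was over 0.6 in 2 serpin entries (3.28%), of Serpine2 and Serpinb6a, against 48.9% of all. The 10 serpin entries with a peak in any list held a median of 3 CpG and the 51 without one also 3. Over all genes, entries with a peak in NPC held a median of 13 CpG, those with a line A peak 7 and those with a line B peak 9. Serpin entries inside the clusters held a median of 3 and those outside a median of 6, with Serpini1 (15) the richest of those with a peak.

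**Figure D5:**
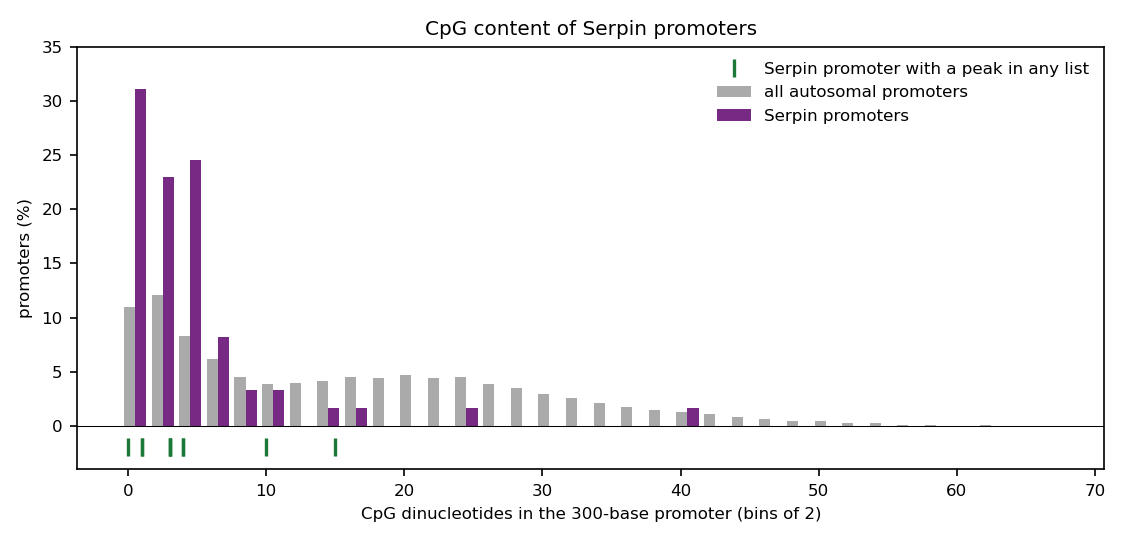
Percentage of promoters (y axis) by number of CpG dinucleotides in the 300-base promoter, in bins of 2 (x axis), for all autosomal promoter entries (grey, n = 20085) and serpin entries (purple, n = 61), with green ticks for the 10 serpin entries with a peak in any list, some at the same value. Serpin entries crowd at 5 CpG or fewer (78.7%), and the ticks lie between 0 and 15.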

How the data were processed

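NPC libraries were made by CUT&RUN and MEF libraries by ChIP-seq, per the labels' protocols. The deposited files were 3 peak lists that give peaks by chromosome, start and end, with no header, score or p-value. MACS2 2.1.1.20160309 (a peak caller), Bowtie2 2.2.9 (an aligner), deepTools, Picard and DESeq2 are listed without their use, per the submitters' processing notes, beside the builds dm6 and mm10. How peaks were thresholded, controlled or pooled was not given in the sources used here. No read counts were analysed, so depth is unknown. Samples were grouped from titles and source names, and all columns of the lists were used.

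Starts were read as 0-based, as BED has them, and are printed 1-based. Genes came from a RefSeq table of GRCm38.p6, the assembly of mm10, which gives start and end with no strand or exon. Strand was taken from the RefSeq promoter table. Of 63 protein-coding serpin records, 1 on the X chromosome was left out, since autosomal genes were taken, and 6 serpin records of other biotypes were left out. Covered length was summed over each record and 2 kb around it. Promoter identity was taken from global alignments of 300 bases.

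Members and lists were chosen with earlier results of these data known. Values are printed for members with a peak in all 3 lists, up to 3 per clade with the most coverage, the 5 with the largest difference between lines and the 5 between NPC and the mean of both lines, and a fixed set of known serpins, 29 symbols in all, of which 1 is not reported here. Serpina1c to Serpina1f, Serpina3c, Serpinb1c, Serpinb10, the other members named as free of peaks, and the pathway genes named were chosen after their values were seen, as were the stretches within clusters. No test was run, since each system has 1 list. Alternatives were other windows, a minimum overlap of 500 bp, 50% coverage, peaks of at least 1000 bp, the 44807 widest peaks of each list, promoters alone, joined peaks and the removal of Serpina1a to Serpina1e. The interval code was tested on simulated data. Python 3.11.15, NumPy 2.4.6, pandas 2.3.3, Biopython 1.88 and matplotlib 3.10.9 were used.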

Additional observations from a re-analysis of the deposited data

How the results depend on the processing

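Of 111 values recomputed under other settings for 24 results, 90 stayed within 1.5 times the main value and 21 did not. Some of the 90 could not move, so this tally is no measure of stability. Keeping the 44807 widest peaks left the NPC list whole. Removing Serpina1a to Serpina1e could not change counts of line A or NPC, which had no peak there. With at least 50% of the record and its 2 kb covered, 3 members counted in line A rather than 13, 0 in line B rather than 20 and 0 in NPC rather than 26. Over the 300-base promoter alone the counts were 2, 3 and 5. With peaks of at least 1000 bp line B had 13 members in all and 6 in the Serpina cluster, and keeping as many of the widest peaks as NPC has it had 13 and 6. These 13 are 21% of the serpins, where 28.8% and 29% of all genes had a line B peak, so that line B, near the background with all peaks, lay below it. The 6 of 23 Serpina members also lay below these shares. The widest peaks also gave 5 members in line A and not line B rather than 8, 9 in line B and not line A rather than 15, and 0 in line A and not NPC rather than 3. They gave 5 of the 16 members of the chromosome 13 cluster in line A rather than 9, where 27.7% of all genes had a line A peak. In the record alone, NPC and not line A came to 10 rather than 16. NPC had 5 of the 23 Serpina members there rather than 9, where 22.3% of all genes had a peak. With 5 kb around the record these Serpina members were 14 (31.9% of all genes), and line A and not NPC came to 5. Without Serpina1a to Serpina1e, a choice made after seeing the data, line B and not NPC came to 4 rather than 9 and line B had 5 Serpina members rather than 10. With peaks under 3 kb apart joined, line B covered 134 kb of the Serpina cluster rather than 86.4 kb. Line A had 0 members and 0 kb in the Serpina cluster in every setting run for it. These values could not differ, since its peak-free stretch ran more than 5 kb past both ends of the cluster. Joining clusters under 200 kb gave the same coverage.

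The causes of these shifts were not tested, except that the settings behind them count fewer or more bases or genes by construction. Leaving out a replicate was not possible because the lists are not split by library. No paired analysis was possible because the lists carry no replicate numbers and no test was run. Depth behind the lists is unknown, so a missing peak sets no limit on the mark.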
